A study of Danio rerio with 23 samples.

Results

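The apolipoprotein genes of the zebrafish intestine were followed through starvation and refeeding, 10 genes in all: *apoa1a*, *apoa1b*, *apoa4b.1*, *apoa4b.2*, *apoa4b.3*, *apoba*, *apobb.1*, *apoea*, *apoeb* and *apoc2*. They were chosen by name, as the main apolipoproteins of gut and liver, with earlier results of these data known. The gene name table paired 9 of the 10 with a row of all 23 count files, among 34326 Ensembl genes, and held no row under the symbol *apoba*. A row listed as *APOB*, which may be that gene, is described below and was not taken as a member. The fish came from a single breeding pair of one sibship, were reared conventionally and were given no mutation or transgene by the labels. At 60 days post-fertilization (dpf) they were moved into clean tanks, where 2 tanks were fed throughout and the other 2 received no food for 21 days before feeding resumed. Whole intestines were taken from single fish after 3 and 21 days of starvation (3dpS and 21dpS) and 3 days after refeeding (3dpR), with fed controls of the same day. This gave 3 libraries for the 3dpS fed controls and 4 for each of the 5 other groups. By the labels, 1 of the 21dpS starved fish came from tank number 1 and 3 from tank number 2. Of the 3dpS fed fish, 1 came from tank number 1 and 2 from tank number 2. The labels give the same age, 81 dpf, for every library, although the groups were sampled on different days. The libraries held 500205 to 1236436 counts each, and the measured members took 0.0914% to 0.398% of them. The strand setting of the counting is not known here, so the counts of a gene may hold reads of the opposite strand. Diet and tank cannot be told apart, because no tank held both fed and starved fish.

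Apolipoproteins coat lipoproteins, the particles that carry fat and cholesterol in blood and lymph. In the enterocyte, microsomal triglyceride transfer protein loads fat onto apolipoprotein B, the scaffold of chylomicrons and very low density lipoproteins. Apolipoprotein A-I is the main protein of high density lipoprotein, and apolipoprotein A-IV is made by enterocytes and leaves the cell on chylomicrons, with a synthesis that rises after a fatty meal in mammals. Apolipoprotein E is the ligand by which remnants are taken up through receptors of the low density lipoprotein receptor family, and apolipoprotein C-II is the cofactor of lipoprotein lipase. Zebrafish keep several copies of most of these genes. In the RefSeq annotation *apoa4b.1*, *apoa4b.3*, *apoa4b.2*, *apoeb*, *apoc1*, *apoc4*, *apoa2* and *apoc2* follow each other in that order on chromosome 16, with a few other genes between them. *apoea* lies beside *apoa4a* on chromosome 19, *apoa1a* lies on chromosome 5, *apoa1b* on 15 and *apobb.1* on 20. Each apolipoprotein gene is given below as CPM (each count as a share of its library, per 1000000 counts), scaled between libraries by the trimmed mean of M-values (TMM) and not by gene length, so that levels are compared between fish and never between genes.

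After 21 days without food, all 8 of the members that could be tested were lower than in fed controls of the same day, and 6 passed the test. Of all 3203 genes tested there, 52.0% were lower and 1.65% were called lower. The 6 members were the apolipoprotein B gene *apobb.1*, the 3 *apoa4b* copies and both apolipoprotein E genes. With any 1 library left out, 2 to 5 passed, with 2 in the fits without 21dpS starved replicate 1 or replicate 4. The members did not all stand alike to the fed controls of other days, a contrast between members that was not tested. Against the mean of the 3 fed groups, where 6.09% of 4223 genes were called lower, *apobb.1* and *apoea* were also called lower in 21dpS starved fish. So was *apoa4b.1* (adjusted p = 0.0455, edgeR), though only in 4 of 15 fits with 1 library left out. *apoa4b.2*, at -1.03 on the log2 scale, was not called (adjusted p = 0.0596). For *apoa4b.3*, *apoeb* and *apoc2* none of these starved fish lay below the lowest fed library of the series. For these genes the 21dpS fed controls lay above the fed controls of both other days. At 3dpS, and again 3 days after refeeding, no member passed the test.

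**Figure D1:**
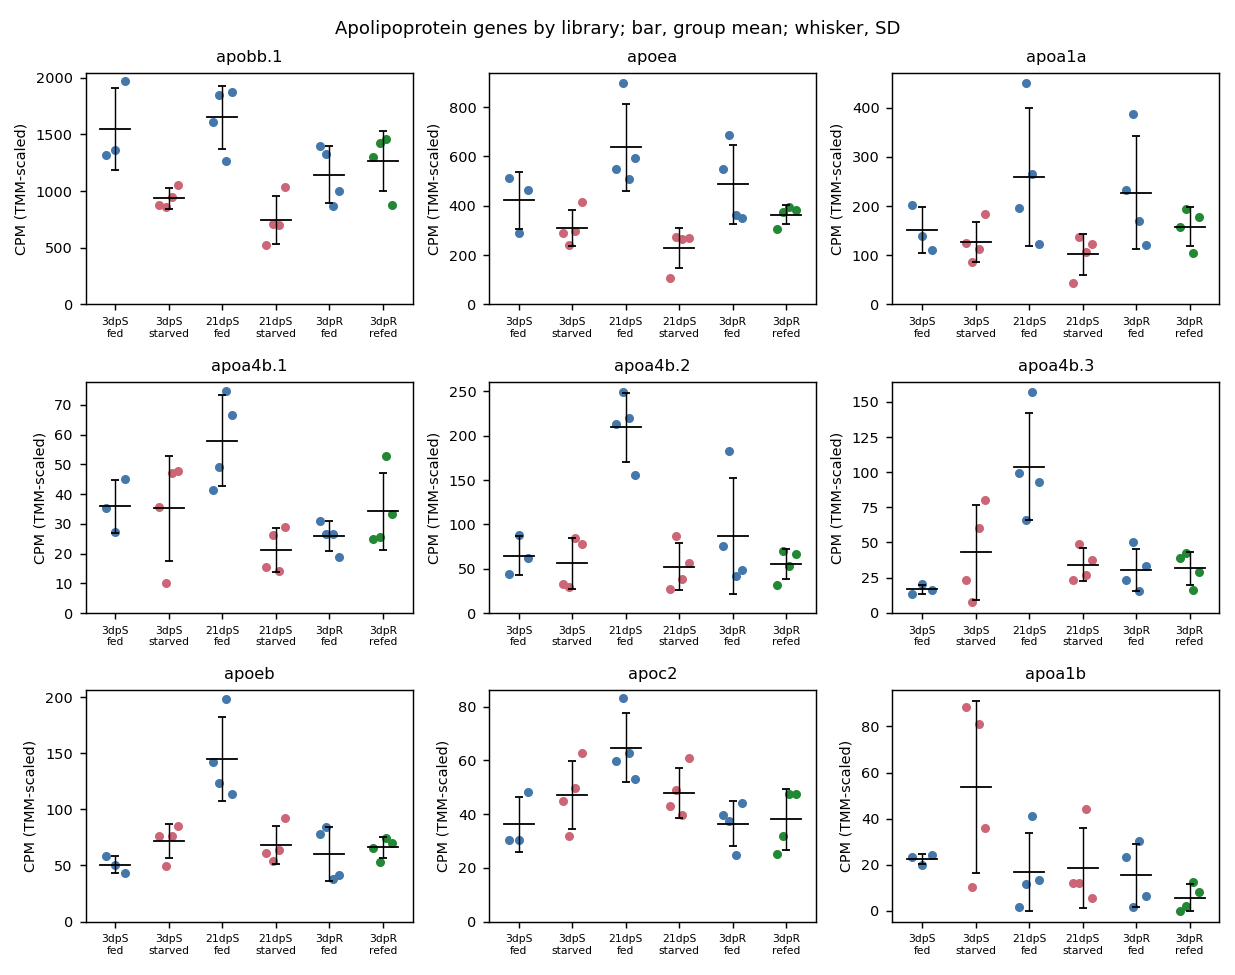
CPM of the 9 measured members in each of the 23 libraries, by group (x axis), with the y axis in TMM-scaled CPM and a scale of its own for each gene; points are single fish, bars group means and whiskers the SD (3 libraries for 3dpS fed, 4 for the others). The 21dpS fed controls have the highest group mean for every gene but *apoa1b*, and the 21dpS starved fish the lowest for *apobb.1*, *apoea*, *apoa1a*, *apoa4b.1* and *apoa4b.2*.

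*apobb.1* encodes an apolipoprotein B, the structural protein that each chylomicron needs. Its CPM were 1316, 1359.6 and 1967 in the 3dpS fed controls and 880.1, 855.7, 949.5 and 1053 in the 3dpS starved fish. At 21dpS they were 1608, 1849.8, 1267 and 1869 in fed controls and 525, 706, 700.5 and 1033 in starved fish. The groups did not overlap on either day, with every starved fish below every fed one. At 3dpR the values were 1393, 1326, 865 and 996 in fed controls and 1299, 1427, 1458 and 880.3 in refed fish, so that the groups overlapped. By mean, the order was 21dpS fed (1649 ± 281 CPM, SD, n = 4), 3dpS fed (1548 ± 364, n = 3), 3dpR refed (1266 ± 266, n = 4), 3dpR fed (1145 ± 255, n = 4), 3dpS starved (935 ± 88.6, n = 4) and 21dpS starved (741 ± 212, n = 4). Each neighbouring pair in this order differed by less than the larger of its SDs.

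The log2 fold change of *apobb.1*, starved against fed, was -0.71 at 3dpS (standard error (SE) 0.22), with an adjusted p of 0.153 by edgeR's quasi-likelihood test with Benjamini-Hochberg adjustment. At 3dpS it was the only one of the 9 members tested whose unadjusted p lay under 0.05, and after adjustment 0 members passed by edgeR and by DESeq2. Of all 3953 genes tested there, 0.531% were called, and 7.18% had every starved library below every fed one. At 21dpS the log2 fold change was -1.21 (SE 0.25, adjusted p = 0.0186, edgeR), a level 2.32 times lower. Leaving out 1 library kept the call in 5 of 8 cases. It was lost without 21dpS fed replicate 4 (adjusted p = 0.0519, edgeR) and without 21dpS starved replicate 1 (0.0615) or replicate 2 (0.0667).

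*apoea* and *apoeb* are the 2 zebrafish apolipoprotein E genes. *apoea* measured 511, 290.3 and 464 CPM in the 3dpS fed controls and 291, 239.7, 299 and 414 in the 3dpS starved fish, which overlapped. At 21dpS it measured 549, 898, 509.8 and 592 in fed controls against 108.8, 274, 266 and 267 in starved fish. At 3dpR the values were 549, 685, 361 and 349.5 in fed controls and 307, 373, 394 and 381 in refed fish. The 4 starved fish of 21dpS lay below all 11 fed libraries of the series, the highest of them at 274 CPM and the lowest fed library at 290.3. Of the 4223 genes tested over these groups, 2.01% showed such a separation, and *apoea* was the only member among them. The 21dpS difference was -1.53 on the log2 scale (SE 0.31, adjusted p = 0.0186, edgeR), 2.89 times lower, and it kept its call in 7 of the 8 fits that left out 1 library, the exception being the fit without 21dpS starved replicate 4 (adjusted p = 0.0558). In order of mean *apoea* ran from 637 ± 177 CPM (SD, n = 4) in 21dpS fed to 229 ± 80.3 (n = 4) in 21dpS starved fish. The only neighbours in that order to differ by more than their larger SD were 3dpS starved (311 ± 73.6, n = 4) and 21dpS starved fish.

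*apoeb* is also known as a gene of zebrafish microglia. It stood at 58.8, 50.3 and 43.3 CPM in 3dpS fed and 75.9, 49.4, 76.2 and 84.9 in 3dpS starved fish. At 21dpS the fed controls measured 142.6, 123.9, 198 and 113.9, and the starved fish 61.3, 54.1, 63.4 and 92.6. At 3dpR both groups lay below the 21dpS fed controls, with 78.1, 84.4, 38.0 and 41.9 CPM in fed and 65.9, 53.3, 74.7 and 70.4 in refed fish. The difference at 21dpS was -1.15 on the log2 scale (SE 0.28, adjusted p = 0.0426, edgeR), and it was lost whichever of the 8 libraries was left out, with adjusted p between 0.0523 and 0.119. The 4 fed fish of 21dpS lay above every one of the other 19 libraries, and the 5 other groups had means between 50.8 and 71.6 CPM. How many of all genes show such a separation was not counted, so how unusual it is remains unknown.

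The 3 *apoa4b* genes are tandem copies for apolipoprotein A-IV, so near in origin that short reads may be shared or lost between them, and their split is uncertain for that reason. Their counts were therefore also summed. *apoa4b.2* measured 43.7, 87.7 and 62.6 CPM in 3dpS fed, 32.5, 29.1, 84.7 and 77.5 in 3dpS starved, 213, 249, 219.6 and 155.6 in 21dpS fed, and 27.6, 87.2, 38.0 and 56.4 in 21dpS starved fish. At 3dpR it measured 75.1, 183, 41.8 and 48.1 in fed and 31.8, 70.4, 52.9 and 66.3 in refed fish. The 21dpS groups did not overlap, the lowest fed fish (155.6 CPM) lying above the highest starved one (87.2 CPM). The copy *apoa4b.3* measured 13.5, 20.1 and 16.0 CPM in 3dpS fed, 23.2, 7.26, 60.5 and 80.5 in 3dpS starved, 99.7, 66.2, 156.9 and 93.0 in 21dpS fed and 22.98, 48.8, 26.9 and 37.6 in 21dpS starved fish. At 3dpR its values were 23.6, 50.0, 15.2 and 33.5 in fed and 38.6, 42.6, 16.4 and 29.0 in refed fish. Here too the 21dpS fed controls did not overlap the starved fish of their day, nor the fed controls of 3dpS and 3dpR. The copy *apoa4b.1* had 9 to 39 counts per library, with group means from 21.2 ± 7.46 CPM (SD, n = 4) in 21dpS starved to 57.9 ± 15.2 (n = 4) in 21dpS fed fish.

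Summed over the 3 copies, *apoa4b* measured 354, 365, 451 and 315 CPM in 21dpS fed and 65.9, 162, 79.2 and 122.9 in 21dpS starved fish. The sum was 92.5, 135 and 123.5 CPM in 3dpS fed, 91.4, 46.5, 192 and 206 in 3dpS starved, 129.6, 259.6, 83.7 and 100.5 in 3dpR fed and 95.4, 138.6, 122 and 128 in 3dpR refed fish. All 4 fed fish of 21dpS thus lay above all 19 other libraries, a separation whose share among all genes was not counted. Against fed controls of the same day, the starved fish of 21dpS differed by -1.49 for *apoa4b.1* (log2, SE 0.34, adjusted p = 0.0295, edgeR), -2.07 for *apoa4b.2* (SE 0.34, adjusted p = 0.00589) and -1.66 for *apoa4b.3* (SE 0.34, adjusted p = 0.0186). For the sum the difference was -1.85 (SE 0.29, adjusted p = 0.0051, edgeR). An exact two-sided permutation test of its mean log2(CPM + 2) gave p = 0.0286, the smallest that 70 splits of 4 against 4 libraries can give. With 1 library left out, the sum and *apoa4b.2* kept their calls in 8 of 8 fits, *apoa4b.3* in 6 of 8 (adjusted p = 0.0579 without 21dpS starved replicate 1 and 0.0558 without replicate 4) and *apoa4b.1* in 2 of 8, with adjusted p up to 0.0814 in the fits that lost it.

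Of the other members, *apoa1a*, for the main protein of high density lipoprotein, measured 196, 449.7, 265 and 123 CPM in 21dpS fed and 42.9, 137.8, 106 and 122.9 in 21dpS starved fish. These overlapped, and its log2 difference of -1.40 (SE 0.43) had an adjusted p of 0.0929 by edgeR, against 0.0392 by DESeq2. It was called under 2 of 7 other settings, DESeq2 among them, and in 0 of 8 fits that left out 1 library. Over all these alternatives the adjusted p of edgeR or DESeq2 ran from 0.00157 to 0.187. *apoc2*, for the cofactor of lipoprotein lipase, had group means from 36.2 ± 10.3 CPM (SD, n = 3) in 3dpS fed to 64.7 ± 12.9 (n = 4) in 21dpS fed fish and a log2 difference of -0.49 at 21dpS (SE 0.28, adjusted p = 0.335, edgeR). *apoa1b*, the second apolipoprotein A-I gene, had between 0 and 67 counts per library and passed the filter on low counts only in fits that held a 3dpS group. In all, 6 of 8 members tested at 21dpS were called lower (2 to 5 with 1 library left out), where 1.65% of the 3203 genes tested were, and the groups did not overlap for 6 members, where that held in the same direction for 5.74% of genes. The median log2 difference of the 8 members was -1.45, that of all genes tested -0.02. Because the members were chosen with earlier results of these data known, setting them against all genes is a description and no independent test.

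The fed controls themselves drifted. Between 3dpS and 21dpS, 8 of 9 members were higher in the later fed fish, with a median log2 difference of 0.79 against 0.01 over all 3401 genes tested. Of all those genes 48.8% were lower in the later fed fish. *apoa4b.3* was called, at 2.63 (SE 0.38, adjusted p = 0.0215, edgeR), where 0.0588% of genes were called higher. *apoa4b.2* was 1.70 higher and *apoeb* 1.51 higher, both with an adjusted p of 0.0908 by edgeR, and both were called by DESeq2 (adjusted p = 0.000684 and 0.00444). The fed fish of both days came from the same pair of tanks. With the tank as a block, *apoa4b.2* was called too (adjusted p = 0.0483) and the summed *apoa4b* rose by 1.72 with an adjusted p of 0.0278, against 1.67 and 0.0561 without the block. The call of *apoa4b.3* was lost in 4 of the 7 fits that left out 1 library, namely without 3dpS fed replicate 1, 2 or 3 or 21dpS fed replicate 4 (adjusted p from 0.0549 to 0.145). The groups did not overlap for *apoa4b.2*, *apoa4b.3*, *apoeb* and *apoc2*, as for 5.91% of all genes in that direction. Within tank number 2 the summed *apoa4b* of 21dpS fed fish was 1.57 above that of 3dpS fed fish on the log2 scale. Within tank number 1 it was 1.96 above, against only 1 library of 3dpS fed fish. That library, replicate 1, stood far from the rest in exocrine pancreas markers, at 8233 CPM. Between the fed fish of these days *apobb.1* differed by 0.09 (SE 0.26, adjusted p = 0.911) and *apoea* by 0.60 (SE 0.30, adjusted p = 0.399).

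From 21dpS to 3dpR all 8 members tested were lower in fed fish and none was called by edgeR or DESeq2, 6 having an unadjusted p under 0.05. Of all 3114 genes tested, 52.0% were lower, 0% were called by edgeR and 2 genes by DESeq2, with 162 at an unadjusted p under 0.05. The median difference of the members was -0.99 on the log2 scale, and that of all genes -0.02. The 3dpR fed controls lay wholly below the 21dpS fed controls for *apoa4b.1*, *apoa4b.3*, *apoeb* and *apoc2*, a separation shown by 1.38% of genes. For the summed *apoa4b* the difference was -1.38 (SE 0.33, adjusted p = 0.634, edgeR), and the exact two-sided permutation test gave p = 0.0286. Between the fed controls of 3dpS and 3dpR no member had an unadjusted p under 0.05, and the calls were 0 for edgeR and DESeq2 alike. There 0% of 3482 genes were called by edgeR and 10 genes by DESeq2, with 218 at an unadjusted p under 0.05.

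Because the 21dpS fed controls stood apart, the 21dpS starved fish were also compared with the mean of the 3 fed groups. That comparison mixes diet with sampling day, which the same-day controls hold fixed. It also gives less weight to the fed group noticed for its high values, so that smaller differences follow for the members high there. Of 9 members tested 3 were called lower, where 6.09% of 4223 genes were. These were *apobb.1* (-0.96 on the log2 scale, SE 0.21, adjusted p = 0.00496, edgeR), *apoea* (-1.16, SE 0.26, adjusted p = 0.00684) and *apoa4b.1* (-0.84, SE 0.28, adjusted p = 0.0455). *apobb.1* and *apoea* kept the call in all 15 fits that left out 1 library and under all 8 other settings. *apoa4b.1* kept it in 4 of the 15, those without 3dpS fed replicate 2, 21dpS fed replicate 1, 21dpS starved replicate 4 or 3dpR fed replicate 4, and over all its alternatives the adjusted p ran from 0.0324 to 0.226. *apoa1a* differed by -1.02 (SE 0.37, adjusted p = 0.0667) and *apoa4b.2* by -1.03 (SE 0.36, adjusted p = 0.0596). The remaining 4 were close to 0: *apoa4b.3* at -0.16 (adjusted p = 0.768), *apoeb* at -0.18 (adjusted p = 0.661), *apoc2* at 0.12 (adjusted p = 0.768) and *apoa1b* at 0.06 (adjusted p = 0.964).

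A further comparison, chosen after seeing the data, set the 21dpS starved fish against the fed controls of 3dpS and 3dpR alone. It too mixes diet with sampling day, and it leaves out the fed group with the high values. The log2 difference was -0.86 for *apobb.1* (SE 0.22, adjusted p = 0.01235, edgeR) and -0.995 for *apoea* (SE 0.28, adjusted p = 0.0205), and no other member was called, where 8.22% of 3955 genes were called lower. For *apoa4b.3* the sign turned, to 0.57 (SE 0.33, adjusted p = 0.236), and for *apoeb* also, to 0.27 (SE 0.27, adjusted p = 0.511). The summed *apoa4b*, at -1.85 against fed fish of the same day, was at -0.28 (SE 0.31, adjusted p = 0.558). Starved fish of 21dpS and of 3dpS were then compared directly, which uses no fed fish. Of 9 members tested 0 were called by edgeR or DESeq2 and 0 had an unadjusted p under 0.05, where 1.86% of 3609 genes were called. The log2 differences ran from -1.54 for *apoa1b* (SE 0.79), which passed the filter here through the 3dpS starved fish, to -0.01 for *apoc2* (SE 0.29), whose sign turned under 5 other settings. In the same comparison all 13 exocrine pancreas markers were called lower, with a median of -3.42, and their part in the members' values was not tested.

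**Figure D2:**
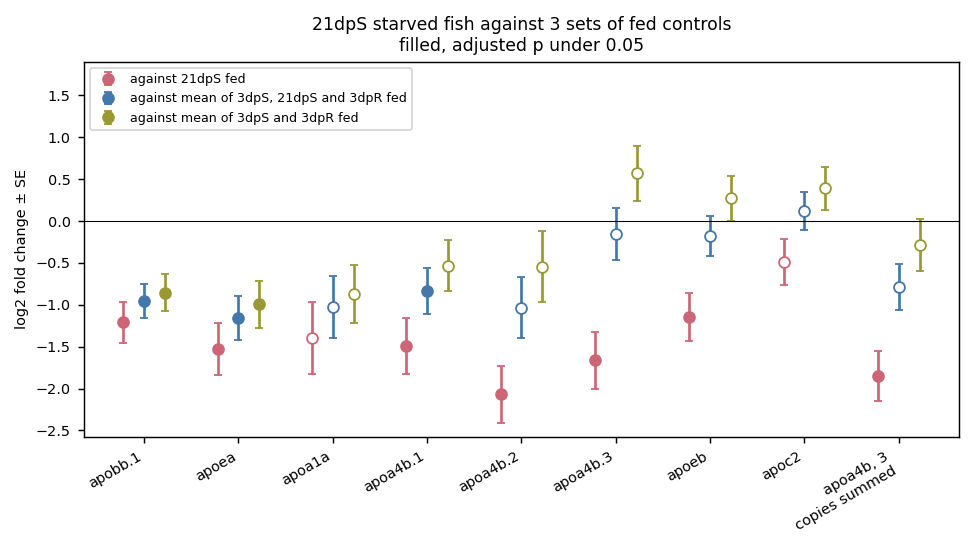
Log2 fold change (y axis, ± SE) of 8 members and of the summed *apoa4b* (x axis) in 21dpS starved fish against 21dpS fed controls (4 libraries), the mean of all 3 fed groups (11 libraries) or the 3dpS and 3dpR fed controls only (7 libraries); filled points passed an adjusted p of 0.05 in edgeR. *apobb.1* and *apoea* stay between -0.86 and -1.53 over these sets of controls, whereas *apoa4b.3* moves from -1.66 to 0.57 and *apoeb* from -1.15 to 0.27. The sets that hold fed fish of other days mix diet with sampling day.

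Whether the effect of diet differed between days was tested with an interaction term over all 23 libraries. Between 3dpS and 21dpS, 0 of 9 members were called by edgeR or DESeq2, with 5 at an unadjusted p under 0.05, and of all 4628 genes 0% were called by edgeR and 1 gene by DESeq2, with 400 at an unadjusted p under 0.05. The lowest adjusted p among members was 0.336, for *apoa4b.3* (difference of effects -2.93, log2, SE 0.75) and for *apoeb* (-1.58, SE 0.41). *apoa4b.3* was called without 3dpS starved replicate 2 (-3.37, adjusted p = 0.026, edgeR) and with no filter on low counts (-2.94, adjusted p = 0.000452). Between 21dpS and 3dpR, 0.0432% of genes were called by edgeR, with 460 at an unadjusted p under 0.05, and 30 of 2808 by DESeq2. No member was called by edgeR, 6 having an unadjusted p under 0.05, and DESeq2 called *apobb.1*. Its difference of effects was 1.29 (SE 0.32) with an adjusted p of 0.097 by edgeR and 0.00687 by DESeq2.

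After 3 days of feeding no member differed detectably from fed fish of that day. Refed fish and fed controls at 3dpR differed in 0 of 8 members tested by edgeR and by DESeq2, none having an unadjusted p under 0.05, where 0.0349% of 2862 genes were called. The largest differences were those of *apoa4b.2* (-0.73, log2, SE 0.47, adjusted p = 0.700), *apoa1a* (-0.61, SE 0.33, adjusted p = 0.665) and *apoea* (-0.49, SE 0.24, adjusted p = 0.654). Without 3dpR fed replicate 2 these came to -0.05, -0.20 and -0.26. *apobb.1* differed by 0.08 (SE 0.22, adjusted p = 0.942). These tests do not show that the groups were alike.

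Against the 21dpS starved fish of the same tanks, refed fish had more *apobb.1*, by 0.78 on the log2 scale (SE 0.24, adjusted p = 0.0447, edgeR), the only member called of 8 tested, where 5.22% of 3008 genes were called higher. With the tank as a block the call passed from *apobb.1* (0.83, adjusted p = 0.0517) to *apoea* (0.90, adjusted p = 0.0372). Without the block *apoea* was 0.67 higher (SE 0.27, adjusted p = 0.121), and its 4 refed fish, at 307 to 394 CPM, all lay above the 4 starved fish, as held for 7.71% of genes. The call of *apobb.1* was lost in 6 of 8 fits that left out 1 library, each of 21dpS starved replicates 1, 2 and 3 and refed replicates 1, 2 and 3, with adjusted p up to 0.137. Among those not called here, *apoa4b.3* differed by -0.11 (SE 0.36, adjusted p = 0.884), *apoeb* by -0.04 (SE 0.27, adjusted p = 0.945) and the summed *apoa4b* by 0.19 (SE 0.29, adjusted p = 0.725).

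Genes that build lipoproteins were measured beside their apolipoproteins. Many of these, among them *mttp*, *p4hb*, *mogat2*, *plin2*, *scarb1*, *gata6* and *vil1*, are listed under the human symbol in capitals (9 of the 15 assembly genes matched, 9 of 13 uptake genes, 6 of 9 enterocyte and 6 of 13 hepatocyte markers), so that which zebrafish copy is meant is less certain for them. Of 15 matched genes of lipoprotein assembly, 10 could be tested at 21dpS, 9 were lower in starved fish and 4 were called, all lower, with a median of -1.04 on the log2 scale. They were *mttp*, for microsomal triglyceride transfer protein (-1.61, SE 0.34, adjusted p = 0.0212), *p4hb*, for protein disulfide isomerase, the partner subunit of that protein (-1.13, SE 0.22, adjusted p = 0.0162), *pla2g12b*, needed for lipoprotein export from liver and gut (-1.12, SE 0.27, adjusted p = 0.039), and *scp2a*, a sterol carrier protein (-1.55, SE 0.34, adjusted p = 0.027, all by edgeR). In fed controls of 3dpS, 21dpS and 3dpR *mttp* measured 59.4 ± 8.59 (SD, n = 3), 97.5 ± 29.0 (n = 4) and 69.5 ± 24.4 (n = 4) CPM, and in 21dpS starved fish 32.9 ± 14.7 (n = 4). Like *apobb.1* it stayed called against the mean of the 3 fed groups (-1.17, SE 0.28, adjusted p = 0.0098), as did *pla2g12b* and *scp2a*, while *p4hb* did not (-0.66, SE 0.23, adjusted p = 0.0581) and the acyltransferases *mogat2* (-1.06, adjusted p = 0.0114) and *mogat3b* (-1.09, adjusted p = 0.0203) joined them. *plin2*, the coat of the cytosolic fat droplet, was at 0.09 against same-day controls (SE 0.55, adjusted p = 0.952) and higher against the mean of the fed groups, at 1.80 (SE 0.44, adjusted p = 0.0105). It was lower in refed than in 21dpS starved fish (log2 difference -2.89, SE 0.49, adjusted p = 0.00276, edgeR). *plin2* was the exception there: of 10 assembly genes tested, 9 were higher in refed fish. The median of the list was 0.64, and *scp2a* was called higher.

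Of 13 matched genes of fat and sterol uptake, 7 were tested at 21dpS and 1 was called, *fabp1b.1*, a fatty acid binding protein of the enterocyte (-2.09, SE 0.35, adjusted p = 0.00655, edgeR). *scarb1*, the receptor that takes up cholesterol from high density lipoprotein, was not called against same-day controls (1.43, SE 0.47, adjusted p = 0.110, edgeR). It was called higher against the mean of the fed groups (1.095, SE 0.35, adjusted p = 0.0395). In refed fish *scarb1* was lower than in 21dpS starved fish (-2.12, SE 0.44, adjusted p = 0.00856). Of 7 uptake genes tested between those groups, 5 were higher in refed fish, with a median of 0.34, and *fabp1b.1* was called higher. None of the 5 regulators tested at 21dpS was called, among them *srebf2*, the sterol-sensing transcription factor (1.35, SE 0.56, adjusted p = 0.198), and *gata6*, a gut transcription factor (-1.42, SE 0.37, adjusted p = 0.0588). Against the mean of the fed groups *hnf1ba*, for a homeobox transcription factor, was called lower (-1.28, SE 0.40, adjusted p = 0.0354). Of the receptors and remodelling enzymes, 2 of 13 matched genes were tested and none was called. No gene of these lists was called at 3dpS or between refed and fed fish at 3dpR.

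**Figure D3:**
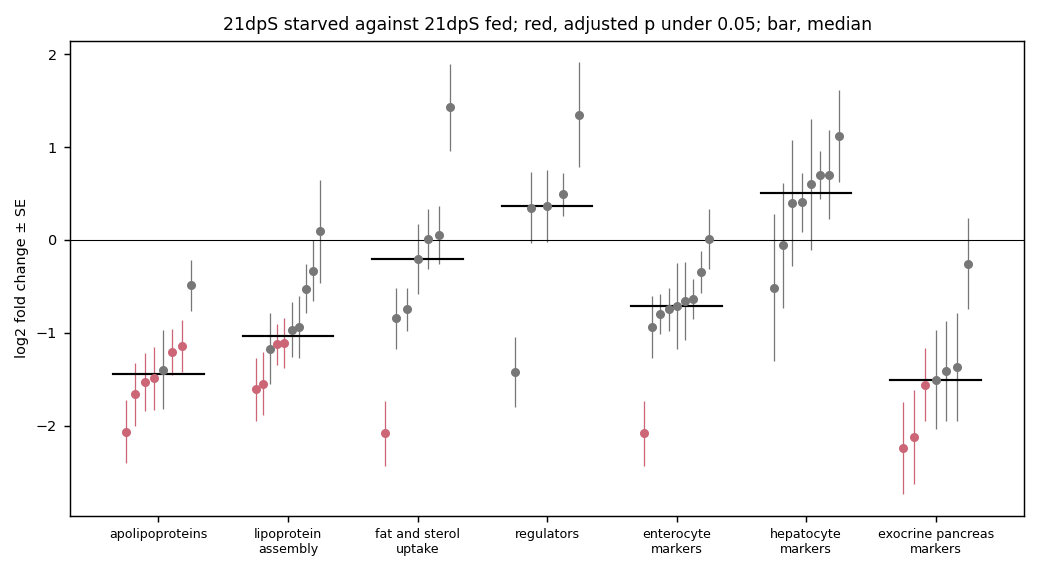
Log2 fold change (y axis, ± SE) of each gene tested at 21dpS, starved against fed, for the members and 6 further lists (x axis), with genes called at an adjusted p of 0.05 in red and the median of each list as a bar. The members have a median of -1.45 and the lipoprotein assembly genes one of -1.04. The enterocyte list shares *fabp1b.1*, *fabp2* and *fabp6* with the uptake list and *mogat2* with the assembly list.

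Whole intestines hold several cell types, and fewer cells of a type and less RNA per cell cannot be told apart in these libraries. Of 9 enterocyte markers tested at 21dpS, 8 were lower in starved fish and 1 was called, *fabp1b.1*, with a median of -0.71 on the log2 scale. The summed level of the 9 ran from 1494 to 1679 CPM in 21dpS starved and from 1984 to 2629 in 21dpS fed fish. Against the mean of the fed groups 5 of 9 were called lower. They were *fabp2*, *fabp1b.1*, *cdh17*, *mogat2* and *vil1*, the last for the brush border protein villin (-0.74, SE 0.19, adjusted p = 0.0153, edgeR). The uptake list also holds *fabp1b.1*, *fabp2* and *fabp6*, and the assembly list also holds *mogat2*. The enterocyte markers are therefore not independent of those lists. The differences of *apobb.1* and *apoea*, at -1.21 and -1.53, lay past those of 8 of the 9 markers, *fabp1b.1* being the exception, and the part of the epithelial share in them was not tested. Over the 23 libraries the log2 level of *apoea* had a Pearson r of 0.73 with the summed enterocyte markers and -0.24 with the summed hepatocyte markers. This is a description only, since the libraries share groups and depth. With the enterocyte markers *apoea* had the highest r of the measured members. The others ran from -0.21 for *apoa1b* to 0.63 for *apoa1a*, with 0.56 for *apobb.1* and 0.02 for *apoa4b.3*. With the summed lipoprotein assembly genes *apoea* had an r of 0.82.

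*apoa1b* behaved otherwise. It measured 88.3, 10.2, 81.0 and 35.8 CPM in 3dpS starved and 23.5, 20.1 and 24.1 in 3dpS fed fish, and between 0 and 12.8 in refed fish. Its log2 level had an r of 0.88 over the 23 libraries with the summed level of 13 hepatocyte markers, such as transferrin (*tfa*) and fibrinogen (*fga*, *fgb* and *fgg*). Those markers ranged from 349 to 2316 CPM in 3dpS starved fish and from 181 to 1346 over all fed libraries. *fabp10a*, the liver fatty acid binding protein, had at most 13 counts in a library. The liver gene *apoa2*, which is no member, had an r of 0.91 with the same markers. *apoa1b* also had an r of 0.79 with the summed macrophage markers, as had *apoa2* one of 0.70. For the other 8 members the r lay between -0.33 and 0.24 with the hepatocyte markers and between -0.29 and 0.13 with the macrophage markers. At 21dpS the hepatocyte markers went against the members, with 6 of 8 tested higher in starved fish, a median of 0.50 and none called. A row that the name table lists under the human symbol *APOB* also followed the hepatocyte markers (r = 0.82). It had 0 to 36 counts per library and was not tested at 21dpS for lack of counts. Of the listed *apob* genes, *apobb.1* and *apobb.2* have rows of their own and *apoba* has none, so this row may be that of *apoba*. It was not taken as a member, since the symbol itself names no zebrafish copy.

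**Figure D4:**
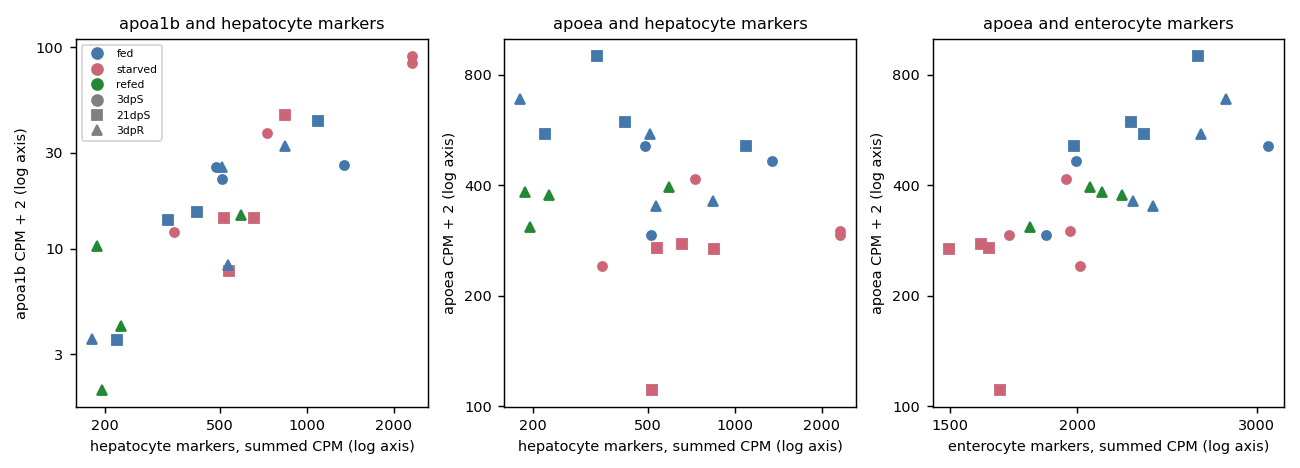
CPM + 2 of *apoa1b* (left) and *apoea* (middle and right) on the y axes against the summed CPM of 13 hepatocyte or 9 enterocyte markers on the x axes, all log axes; each point is 1 of 23 libraries, coloured by diet and shaped by day. *apoa1b* follows the hepatocyte markers (r = 0.88), whereas *apoea* has an r of -0.24 with them and of 0.73 with the enterocyte markers. The enterocyte sum includes *fabp1b.1*, the gene most like *apoea* (r = 0.94).

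Exocrine pancreas genes also differed between groups. Of the exocrine markers 3 of 7 tested at 21dpS were called lower in starved fish (*prss59.1*, *cpa5* and *cel.2*), and their summed level was 177 to 446 CPM in starved and 332 to 1487 in fed fish. One 3dpS fed library, replicate 1, stood far from the rest at 8233 CPM of these markers, against 766 and 1019 in the other 2. Without it 0 members were called at 3dpS, as before, and the sign of *apoa1a* turned, from -0.23 to 0.03. Between fed fish of 3dpS and 21dpS, where *apoa4b.3* rose, 12 of 12 pancreas markers tested were lower, with a median of -2.12 and none called by edgeR, and the part of pancreas tissue in the members' values was not tested. That comparison holds the outlying 3dpS fed replicate 1. The other 3dpS fed libraries measured 766 and 1019 CPM, and the 21dpS fed fish 501, 1487, 571 and 332. The r of these markers with the members lay between -0.20 and 0.32 over the 23 libraries. Of the macrophage markers 2 were tested at 21dpS and none was called.

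2 other genes with many counts were set beside *apoa1a* and *apoea*. In RefSeq *apoa1a* overlaps *rnf214*, for a ring finger protein, and *rnf214* had 8903 to 43644 counts per library where *apoa1a* had 28 to 265. *rnf214* measured 51099, 70639.8, 71518 and 53325 CPM in 21dpS fed and 13638, 19617, 25135 and 16077 in 21dpS starved fish, a log2 difference of -1.78 (SE 0.26, adjusted p = 0.00347, edgeR). Its 4 starved fish of 21dpS lay below all 11 fed libraries, and it was 1.41 higher in refed fish than in them (SE 0.25, adjusted p = 0.00352). The gene that overlaps *apoea*, *si:dkey-3n22.9*, had at most 2 counts in a library, and the gene after *apoea* differed by -0.28 at 21dpS (SE 0.26, adjusted p = 0.577, edgeR) with an r of 0.17 to it. The other abundant gene is ENSDARG00000098513, whose symbol bears the name of the same genomic clone as that of this next gene and whose own position was not analysed here. It had 1760 to 8237 counts per library and a log2 difference of -1.58 at 21dpS (SE 0.27, adjusted p = 0.00655), and it too lay below all fed libraries in the 21dpS starved fish. Over the 23 libraries *rnf214* had an r of 0.77 with *apoa1a*, and ENSDARG00000098513 one of 0.83 with *apoea*. The strand setting of the counting is not given in the sources used here. In these files the mitochondrial gene *MT-ND6*, the only protein gene on its strand of the mitochondrial genome, had a mean of 16493 counts per library, above *MT-CO1* at 3915. The count of any gene may therefore hold reads of the opposite strand, in part or in the main. This bears on all measured members, and its part in their levels was not tested.

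**Figure D5:**
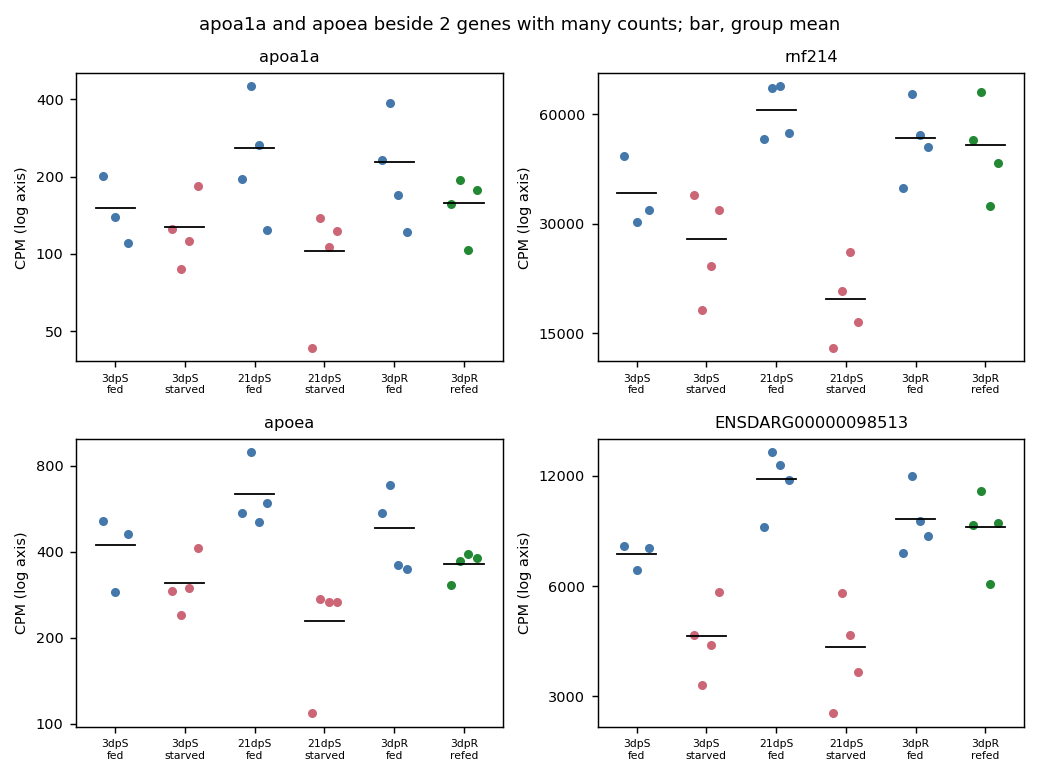
CPM per library (y axes, log scale, each with its own range) of *apoa1a*, *rnf214*, *apoea* and ENSDARG00000098513 by group (x axes), with bars for group means. All 4 genes have their lowest group mean in the 21dpS starved fish, and for *rnf214*, *apoea* and ENSDARG00000098513 those 4 fish lie below every fed library.

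Searched over 2851 genes with a mean of at least 20 CPM, the genes most like *apoea* over the 23 libraries were *fabp1b.1* (listed as FABP1, r = 0.94), a desaturase listed as FADS3 (0.86), ENSDARG00000098513 (0.83), the carboxylesterase *ces2b* (0.82) and a subunit of ATP synthase listed as ATP5F1A (0.82). Those most like the summed *apoa4b* had lower values, among them *jak2a*, a cytokine receptor kinase (0.77), and *homezb* (0.75). Among members, the r was 0.86 between *apoa1a* and *apoea*, 0.80 between *apobb.1* and *apoea*, 0.76 between *apoa4b.2* and *apoa4b.3* and 0.77 between *apoa4b.3* and *apoeb*, which lie in the same cluster on chromosome 16. After the group means were taken off, these r were 0.77, 0.62, 0.66 and 0.45.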

How the data were processed

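RNA-sequencing (RNA-seq) was carried out on 23 whole intestines, 1 per library. The authors trimmed single-end reads with Trim Galore, mapped them with STAR to GRCz10 and counted them per Ensembl gene with HTSeq. The deposited files hold these raw counts, with no normalization. The annotation release and strand setting are not given in the sources used here. Replicates were numbered by accession, and p-values measure the spread between fish of the same tanks.

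Counts were tested in R 4.3.3 with edgeR 4.0.16 (filterByExpr, TMM, robust quasi-likelihood F-test, two-sided) on the libraries of the groups compared, with Benjamini-Hochberg adjustment over all genes tested and calls at an adjusted p under 0.05. The SE is the log2 fold change divided by the square root of F. The test was checked on simulated data. For 21dpS starved against fed fish edgeR called 27% of 2-fold and 93.1% of 4-fold changes, with 6.2% of calls false. For fed fish of 21dpS against 3dpS it called 17.2% and 83.3%, with 7.6% false. For the effect of diet between 21dpS and 3dpR it called 3.1% and 33.3%, with 2.7% false. The 3 *apoa4b* rows were also replaced by their sum. Alternatives were DESeq2 1.42.0 (also the authors' tool), a block for tank number, RLE in place of TMM, scaling that left out the top 100 genes, the low-count filter removed or raised to a minimum of 10 in each library, a joint fit of all 23 libraries and each library left out. The labels number the tanks, and fed groups shared their tanks, as did starved and refed groups. Across 4628 genes the tank deviations of 2 groups correlated with r between -0.21 and 0.39. Correlations used log2(CPM + 2).

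Symbols came from the gene name table (in human capitals for many list genes), from the study's supplementary gene table for a few list genes and, for neighbours only, from RefSeq (another assembly). All members were named, as were called genes of 9 lists and the genes most like *apoea* and summed *apoa4b*. Some genes that these rules name are not reported here. Members and lists were chosen with earlier results of these data known.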

Additional observations from a re-analysis of the deposited data

Results flagged for a closer look

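In 50 sets of 4 libraries (a member or the summed *apoa4b* in 1 group), 2 held a library far from the other 3 by Dixon's criterion, where chance gives about 1 in 20. *apoea* in 21dpS starved replicate 1 was the lowest of its group at 108.8 CPM, with the nearest at 266. Replicate 1 was the only fish of that group from tank number 1, so that fish and tank cannot be told apart there. *apoa1b* in 21dpS starved replicate 3 was the highest of its group at 44.4 CPM, with the nearest at 12.3. Without that first library the 21dpS difference of *apoea* was -1.28 on the log2 scale (adjusted p = 0.0354, edgeR). In the fits as designed edgeR called no member's effect of diet different between days. On simulated data the test between 21dpS and 3dpR called only 33.3% of 4-fold changes, so that real differences could be missed.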

How the results depend on the processing

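The fall of *apobb.1* and *apoea* in 21dpS starved fish against the mean of the fed groups held under every setting run. At 21dpS, leaving out 1 library gave 2 to 5 members called in place of 6, and the other settings 5 to 7. The tank number as a replicate block left 6, but that block pairs different tanks of fed and starved fish by their number alone. The cause of the changes below was not tested.

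From 3dpS to 21dpS in fed fish, DESeq2 called 3 members, no filter 3, a minimum of 10 counts 0 and the tank block 2, and the summed *apoa4b* passed at 1.66, 1.67, 1.64 and 1.72. With no filter, 2 members and the sum (-1.37) were called between fed fish of 21dpS and 3dpR, 1 member and the sum (-1.97) for the effect of diet between 3dpS and 21dpS, and 0 members between refed and 21dpS starved fish, as with a minimum of 10 counts. DESeq2 called 1 member for the effect of diet between 21dpS and 3dpR. Against the mean of the fed groups the sum passed at -0.83 with a minimum of 10 counts. The share of all genes called under each setting is not set beside the counts of members in this section. Those counts therefore describe the settings and are no result about the members.

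Signs turned only for uncalled differences near 0. Between refed and fed fish these were *apoa4b.3* (0.0816 with no filter, 0.0237 with all libraries) and *apoc2* (-0.0049 with a minimum of 10 counts, -0.0286 with the tank block). *apoc2* also turned between fed fish of 3dpS and 3dpR (-0.0044 with a minimum of 10 counts) and between starved groups (0.059 by DESeq2, 0.0103 with RLE factors, 0.0904 with no filter, 0.0134 without abundant genes, 0.0339 with all libraries). With the tank block *apoeb* was at 0.0218 between refed and 21dpS starved fish and *apoa1b* at -0.10 against the mean of the fed groups. With 3dpS and 3dpR fed controls only, a setting added after seeing the data, *apoa1b* was at -0.012, *apoa4b.3* at 0.57 and *apoeb* at 0.27.

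With 1 library left out, members called ranged from 0 to 1 for fed fish of 3dpS and 21dpS, for refed against 21dpS starved fish and for the effect of diet between 3dpS and 21dpS, and from 2 to 5 against the mean of the fed groups. The summed *apoa4b* ranged from -0.0605 to 0.52 at 3dpS, -0.50 to 0.16 at 3dpR, -0.15 to 0.50 for fed 3dpR against 3dpS, -1.82 to -1.20 for fed 3dpR against 21dpS and -1.06 to -0.61 against the mean of the fed groups. At 3dpS *apoa1a* ranged from -0.46 to 0.0345, *apoa4b.1* from -0.24 to 0.32 and *apoa4b.2* from -0.48 to 0.0709. At 3dpR *apoa4b.3* ranged from -0.25 to 0.33, *apobb.1* from -0.0342 to 0.22, *apoeb* from -0.12 to 0.26 and *apoc2* from -0.13 to 0.18. In fed fish *apobb.1* ranged from -0.0032 to 0.29 (21dpS against 3dpS), *apoa1a* from -0.57 to 0.23 (3dpR against 21dpS), *apoa4b.2* from -0.22 to 0.73 and *apoc2* from -0.10 to 0.28 (3dpR against 3dpS). Between starved groups *apoa4b.2* ranged from -0.48 to 0.16, *apoa4b.3* from -0.75 to 0.14 and *apoc2* from -0.18 to 0.15. Between refed and 21dpS starved fish *apoa4b.2* ranged from -0.11 to 0.43, *apoa4b.3* from -0.29 to 0.12 and *apoeb* from -0.15 to 0.14. Against the mean of the fed groups *apoa1b* ranged from -0.82 to 0.37 and *apoc2* from -0.0097 to 0.21.

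Depth limits the low members most: *apoa4b.1* had 9 to 39 counts and *apoa1b* 0 to 67 per library.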

Other observations

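Other genes of the chromosome 16 cluster were measured beside the members. *apoc1*, for an inhibitor of lipoprotein lipase, stood at 179.4, 218.9, 102 and 81.6 CPM in 21dpS fed and 79.7, 50.6, 79.2 and 108.5 in 21dpS starved fish, which overlapped. Its log2 difference was -0.94 (SE 0.35, adjusted p = 0.150, edgeR). *si:dkey-7f3.14*, which lies between *apoa4b.3* and *apoa4b.2*, had a log2 difference of -0.90 at 21dpS (SE 0.47, adjusted p = 0.296) and one of 0.16 between fed fish of 21dpS and 3dpR (SE 0.57, adjusted p = 0.971). *apoc4* had at most 1 count in a library. *apoa4a*, beside *apoea*, had at most 7 counts.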
